A study of Mus musculus with 12 samples.

Results

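The small bowel of mice that had lost the ileum's end and the cecum was compared with and without 2'-fucosyllactose (2'-FL), a sugar of human milk, across all genes. The comparison takes 6 of the 12 libraries of the series, chosen by their labels: the 3 libraries labelled Post ICR 2FL (Post 2'-FL 1 to 3) and the 3 labelled Post ICR Control (Post control 1 to 3). ICR stands for ileocecal resection, the removal of the terminal ileum with the cecum. The other 6 libraries carry Pre labels. They enter the choice of genes tested, the scaling, each gene's mean level used for the length trend, and the spread between libraries. At the end they are used to ask whether the arms already differed there.

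Both Post groups came from male C57BL/6 mice, 8 to 10 weeks old, which all underwent the resection on day 0, and small bowel was taken 8 weeks later. The Post 2'-FL mice had the supplement at 2.5 g/L from day 0, and the Post control mice had none. Liquid diet from day 7, followed by standard chow, was given to both groups, so resection and diet are shared and do not differ between them. The labels name no segment of bowel, no hour of collection and no batch, and describe each library as bowel of a mouse without saying that the mice of a group differ, so p-values measure only the spread between these libraries. The series was made to ask how the supplement bears on adaptation of the bowel after resection.

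The lining of the small bowel is renewed from stem cells in the crypts, whose dividing daughters either become secretory cells (Paneth, goblet and enteroendocrine cells) or move up the villus as enterocytes, which carry the digestive enzymes and transporters of the brush border. After part of the bowel is lost, the remnant adapts by crypt cell division and longer villi, and growth signals through the insulin, insulin-like growth factor and epidermal growth factor receptors are known to take part. The sugar 2'-FL is hardly digested by the host, is fermented by some gut bacteria and carries fucose, which host cells also attach to their own surface glycans.

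The 6 libraries held between 5692972 and 9321751 counts, and 13154 genes had enough counts to be tested. Enterocyte genes were abundant in all of them: Fabp2, a fatty acid binding protein, took 2.14%, 2.26% and 1.44% of all counts in Post control 1 to 3. The largest share in Post 2'-FL 1, 5.18%, belonged to Reg3b. Fgf15, a hormone of the ileum, had 0 counts in all 6 libraries, and Fabp6, the ileal bile acid binding protein, had between 2 and 13 counts in each; its difference did not pass the test (0.89 ± 2.38 in log2 units, adjusted p = 0.79; corrected as described next -0.16 ± 2.57, adjusted p = 0.972). In RNA from whole bowel, fewer cells of a type and less RNA per cell cannot be told apart.

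Levels followed transcript length, and did so differently in the groups. Each gene's log2 CPM in a library was set against its mean of the 12 libraries, and this deviation was ranked against transcript length. Spearman's rho, which is across genes and not over independent replicates, was -0.0365, -0.206 and 0.357 in Post control 1 to 3, and -0.444, -0.563 and -0.600 in Post 2'-FL 1 to 3. All 3 Post 2'-FL libraries lay below all 3 Post control libraries, a difference of -0.574 between the group means (exact permutation test, two-sided, p = 0.1, the smallest that 3 against 3 allows). In the decile of shortest transcripts (1292 genes, 57 to 1224 nt) the median difference, Post 2'-FL minus Post control, was 0.963 in log2 units, and 63.2% of them were called higher. In the decile of longest transcripts (1292 genes, from 6488 nt) the median was -0.613, and 42.5% were called lower.

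**Figure D1:**
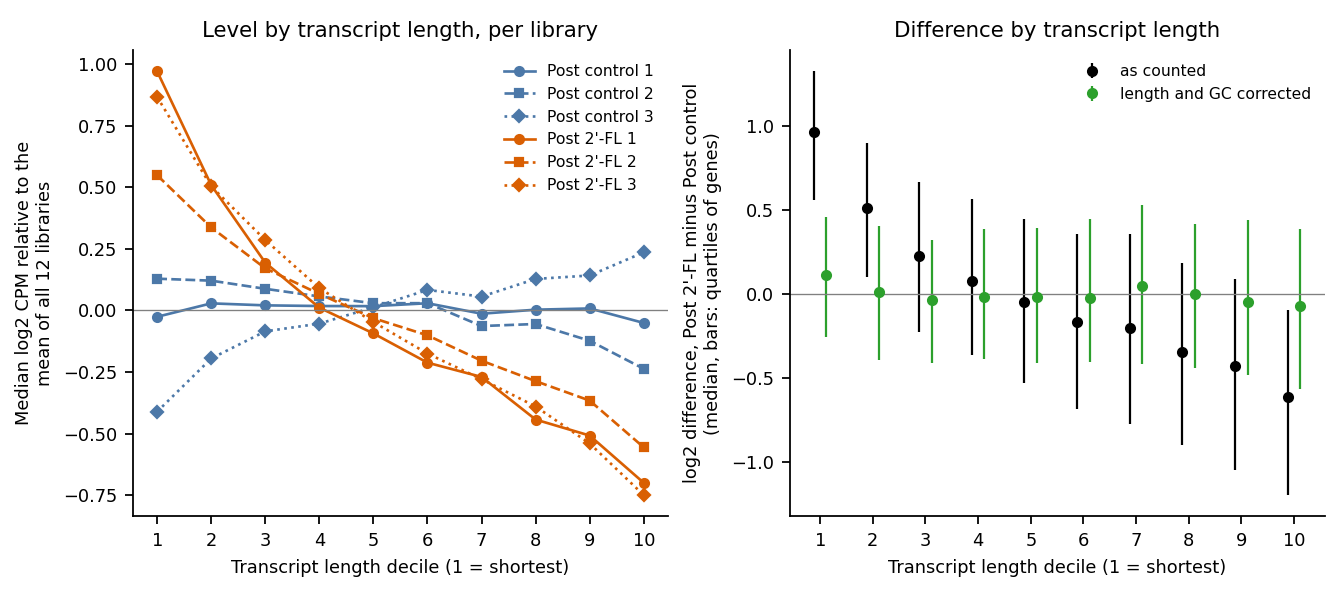
Left, median log2 CPM of each decile of the genes by transcript length, relative to the mean of all 12 libraries, in each Post library. Right, median log2 difference of the same deciles with the quartiles of their genes as bars: the slope from 0.963 to -0.613 as counted becomes 0.117 to -0.0678 after correction.

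Each difference is therefore given in 2 ways. The first uses the counts as deposited, scaled to library size and given as CPM. The second compares genes of like transcript length: in every library a smooth curve of level on transcript length and another on GC content were fitted over all genes and taken out, and values on that scale are called corrected CPM. After the correction the median difference was 0.117 in the shortest decile and -0.0678 in the longest. A gene without a matched length (239 of 13154) was not corrected. Whether the length trend came from the RNA, from the libraries or from the bowel was not tested, and so a change that all short or all long transcripts share cannot be told apart from it.

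As counted, 5011 of the 13154 genes (38.1%) differed between Post 2'-FL and Post control at an adjusted p under 0.05, 2471 higher (18.8%) and 2540 lower (19.3%) with 2'-FL. Corrected, 2837 (21.6%) differed, 1328 higher (10.1%) and 1509 lower (11.5%). In both ways and the same direction, 2198 genes (16.7%) were called, 1008 higher (7.66%) and 1190 lower (9.05%). Of the genes called as counted, 2797 were not called after correction and 16 were then called the opposite way, while 623 were called only after it. The 3 and 3 libraries did not overlap in 50.7% of the genes as counted (25.2% higher and 25.4% lower with 2'-FL) and in 41.8% corrected (19.8% higher and 22.1% lower). The median difference over all tested genes was 0.017 as counted and -0.00051 corrected.

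How many genes were called hung on 2 libraries. Post control 3 and Post 2'-FL 1 lay at the ends of the first principal component of the 6 Post libraries, which held 68.1% of the variance as counted and 58.6% corrected. Leaving out Post control 3 left 3279 calls as counted and 1144 corrected, and leaving out Post 2'-FL 1 left 3412 and 925. Without Post control 1 there were 1792 corrected calls and without Post 2'-FL 3 there were 1822. With Post control 3 and Post 2'-FL 1 both left out, 2 libraries remained in each group, 2021 genes were called as counted and 0 corrected by edgeR (2632 at an unadjusted p under 0.05, smallest adjusted p 0.0584). No corrected call described below, of a gene or within a list, was thus present in that 2 against 2 comparison. Beside each gene it is said whether its corrected call held when any 1 of the 6 Post libraries was left out, which 404 higher and 433 lower genes did.

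**Figure D2:**
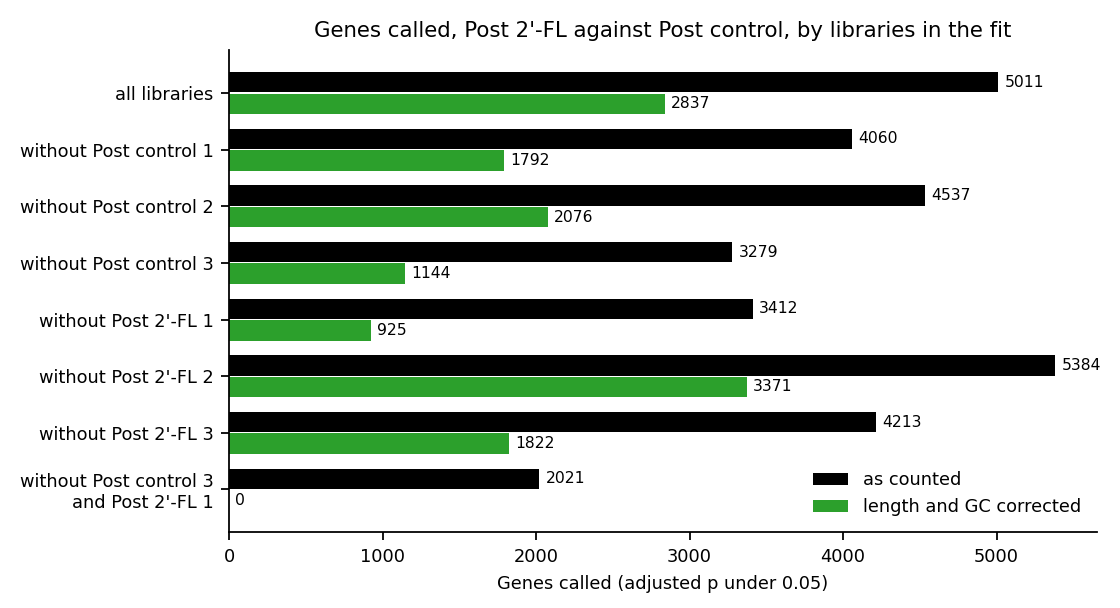
Number of genes called (adjusted p under 0.05) with all libraries, without each Post library in turn, and without both Post control 3 and Post 2'-FL 1. Bars in black give counts as deposited and bars in green the length and GC corrected fit, which falls from 2837 to 0 in the last row.

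By corrected log2 difference, the 10 largest increases that held both ways were Cntd1 (3.94), Col6a3 (2.46), Dnajc15 (2.25), Reg3b (2.20), Gins2 (2.15), Fbn1 (2.15), Dnah14 (2.13, a gene without a matched length), Naca (2.08), Col3a1 (2.07) and Fn1 (2.07). Cntd1 encodes a cyclin-like protein of meiosis, and its call ended without Post control 1, 2 or 3 or without Post 2'-FL 1 or 3 (between 3.48 and 4.64, adjusted p between 0.102 and 0.128); as counted it ended without Post 2'-FL 1 (4.06, adjusted p = 0.054). Dnajc15, a co-chaperone of the mitochondrial inner membrane (Entrez 66148, chr14:77826217-77874917, mm10, here and below), stood at 24.5, 31.1 and 15.9 CPM in Post control 1 to 3 and 133, 57.9 and 98.2 in Post 2'-FL 1 to 3. The lowest Post 2'-FL library was above the highest Post control library, and the corrected difference of 2.25 ± 0.31 (SE, adjusted p = 0.00275) held without any single library. Gins2, a subunit of the helicase complex that opens DNA for replication (Entrez 272551, chr8:120581266-120589075), stood at 4.31, 4.75 and 3.81 CPM in Post control 1 to 3 and 14.4, 11.9 and 12.7 in Post 2'-FL 1 to 3, again without overlap, and differed by 1.60 ± 0.30 as counted and 2.15 ± 0.31 corrected (adjusted p = 0.00275). Naca, which binds new proteins as they leave the ribosome, shows how far the assumed transcript matters: its corrected difference was 2.08 with the longest curated transcript (6745 nt), 0.87 with that of middle length and 0.43, adjusted p = 0.0674 with the shortest, while as counted it was 1.32 ± 0.23.

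The 10 largest decreases that held both ways were Cpeb4 (-2.54), Kif13b (-2.34), Polr2a (-2.25), Lpar5 (-2.09), Nrip1 (-2.09), Erbb3 (-2.06), Zbed6 (-2.03), Clca6 (-2.03), Garem (-2.01) and Rcor1 (-1.97). Cpeb4 binds mRNA tails, Kif13b is a kinesin motor, Nrip1 and Rcor1 are corepressors of transcription, and Garem carries signals from the epidermal growth factor receptor. Polr2a, the largest subunit of RNA polymerase II (Entrez 20020, chr11:69733997-69758633), stood at 41.8, 34.9 and 73.8 CPM in Post control 1 to 3 and 1.51, 13.1 and 3.72 in Post 2'-FL 1 to 3, and differed by -2.25 ± 0.41 corrected (adjusted p = 0.00425). Post 2'-FL 2 lay closest to the controls for Polr2a, Cpeb4 and Erbb3. Clca6, a gene of the calcium-activated chloride channel regulator family (Entrez 99663, chr3:144952486-144975045), stood at 3193, 4147 and 2591 CPM in Post control 1 to 3 and 620.4, 1371 and 817 in Post 2'-FL 1 to 3. Its 3 Post 2'-FL libraries were all below the 3 Post control libraries, with a difference of -1.82 ± 0.33 as counted and -2.03 ± 0.36 corrected (adjusted p = 0.00397). Lpar5, a receptor for lysophosphatidic acid with a short transcript (1458 nt), was lower against the length trend, at 27.6, 25.4 and 28.9 CPM in Post control 1 to 3 and 3.41, 11.6 and 6.51 in Post 2'-FL 1 to 3 (-2.09 ± 0.30 corrected, adjusted p = 0.00275). These calls held without any single library, except that of Zbed6, a repressor of transcription, which ended without Post control 3 (-1.75, adjusted p = 0.0549) or Post 2'-FL 1 (-1.69, adjusted p = 0.0595) and reached -3.50 without Post 2'-FL 2. Rcor1 had 12.2, 9.14 and 20.1 CPM in Post control 1 to 3 and 1.33, 6.78 and 2.6 in Post 2'-FL 1 to 3.

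**Figure D3:**
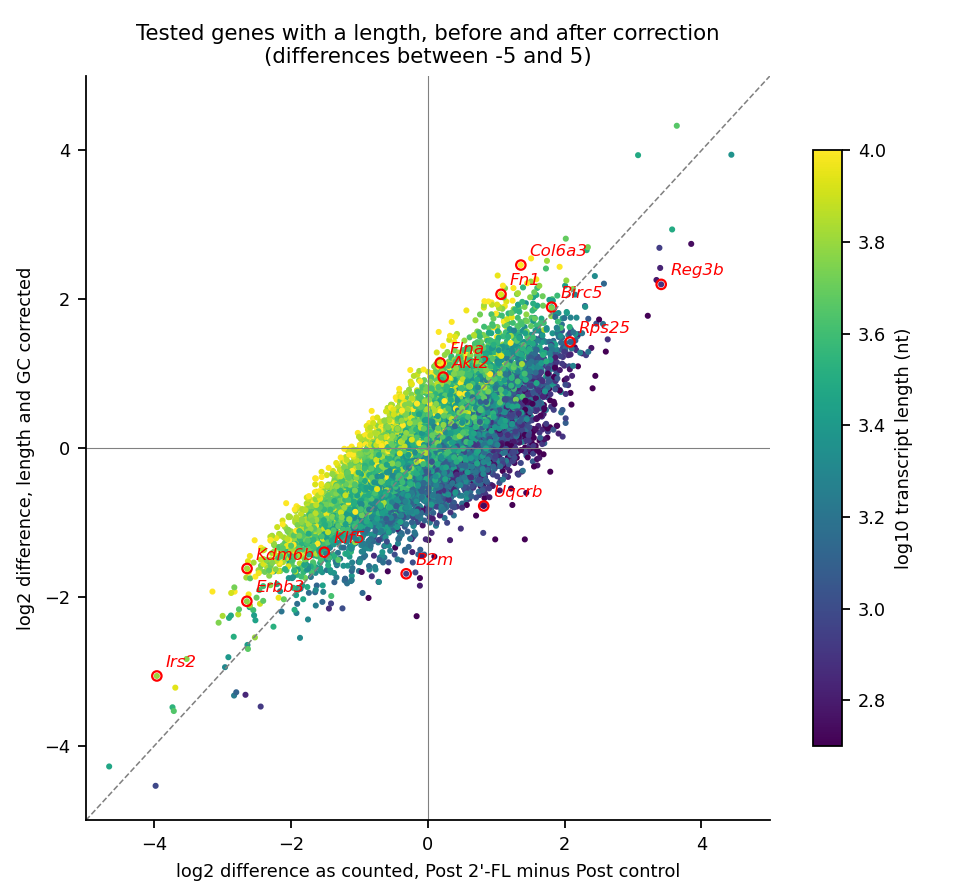
Log2 difference of each tested gene as counted (horizontal axis) and length and GC corrected (vertical axis), coloured by transcript length. Genes with long transcripts lie mostly above the dashed line of equality and genes with short ones mostly below it; Reg3b fell from 3.41 to 2.20, Fn1 moved from 1.07 to 2.07, and Uqcrb changed sign.

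Other large differences as counted did not pass after correction. On the higher side these were the genes Saa1 (3.34 as counted, 2.26 corrected), an acute phase protein, Reg3g (2.63, 1.46), Pla2g5 (2.44, 2.31), a secreted phospholipase, Vip (2.35, 1.29), a neuropeptide, and Hbb-bs (2.26, 1.27), a beta globin. On the lower side they were Akna (-2.25, -1.30), Duox2 (-2.19, -1.45), an oxidase that makes hydrogen peroxide at the epithelial surface, Arnt2 (-2.07, -1.36), Tfcp2l1 (-1.99, -1.41) and Itpr2 (-1.89, -1.11), a calcium release channel. As counted, the calls of Vip, Hbb-bs, Akna and Itpr2 held without any single library. Without Post 2'-FL 1 the others lost theirs: Saa1 at 2.08, adjusted p = 0.174, Reg3g at 2.29, adjusted p = 0.0566, Pla2g5 at 2.23, adjusted p = 0.0978, Duox2 at -2.07, adjusted p = 0.0915, Arnt2 at -1.74, adjusted p = 0.076 and Tfcp2l1 at -1.69, adjusted p = 0.094. Single control libraries ended some of them too: Post control 1 (Saa1 at 2.94, Pla2g5 at 2.20), Post control 2 (Duox2 at -1.34, Arnt2 at -1.74) and Post control 3 (Saa1 at 2.86, Reg3g at 2.37, Pla2g5 at 2.29, Tfcp2l1 at -1.63), as did Post 2'-FL 3 (Pla2g5 at 2.30, Duox2 at -1.89, Tfcp2l1 at -1.65). With other settings of the correction several of these 10 genes passed: with the transcript of middle length, Saa1 (3.01), Reg3g (2.08), Pla2g5 (2.52), Vip (1.72), Hbb-bs (2.07), Akna (-1.30), Arnt2 (-2.15) and Itpr2 (-1.88) did.

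Among secreted antimicrobial proteins the C-type lectin Reg3b led. Reg3b, which enterocytes and Paneth cells secrete against bacteria (Entrez 18489, chr6:78370885-78373466, 783 nt), stood at 1515, 8800 and 1401 CPM in Post control 1 to 3 and 64830, 18690 and 41210 in Post 2'-FL 1 to 3. Post control 2 stood well above the other controls, and the groups did not overlap. The difference was 3.41 ± 0.76 as counted (adjusted p = 0.00355), a call that held without any single library. On the corrected scale the levels were 1626, 8841 and 1954 corrected CPM in Post control 1 to 3 and 24170, 11870 and 21070 in Post 2'-FL 1 to 3, and the difference of 2.20 ± 0.63 passed (adjusted p = 0.0255) but not without Post control 1 (1.82, adjusted p = 0.0843), Post control 3 (1.87, adjusted p = 0.101), Post 2'-FL 1 (2.00, adjusted p = 0.0967) or Post 2'-FL 3 (2.13, adjusted p = 0.0584); without Post control 2 it was 3.42. Its neighbour Reg3g, a lectin of the same family (Entrez 19695, chr6:78466269-78468874), stood at 922, 4779 and 1136 CPM in Post control 1 to 3 and 20070, 6682 and 15570 in Post 2'-FL 1 to 3 and differed by 2.63 ± 0.75 as counted (adjusted p = 0.0138). That call ended without Post control 3 (2.37, adjusted p = 0.064) or Post 2'-FL 1 (2.29, adjusted p = 0.0566), and corrected the groups overlapped (1.46, adjusted p = 0.116). Of the 5 Reg lectin genes tested, 4 were higher as counted and 1 corrected, against 18.8% and 10.1% of all genes.

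Most Paneth cell genes tested were higher as counted, and 1 was called higher among genes of like length. Of 19 tested, 11 were higher as counted and 1 corrected, against 18.8% and 10.1% of all genes. Corrected, the share of the list was thus not above that of all genes. The median difference was 1.24 as counted and 0.098 corrected, and the median length of the 19 transcripts was 426 nt. The 1 corrected call, Mmp7, the protease that activates defensins (Entrez 17393, chr9:7692090-7699585), stood at 60.2, 57.4 and 39.5 CPM in Post control 1 to 3 and 354, 171 and 133 in Post 2'-FL 1 to 3. Its difference was 2.07 ± 0.44 as counted and 1.10 ± 0.37 corrected (adjusted p = 0.0478), and the corrected call held only without Post 2'-FL 3: without Post control 1, 2 or 3 the values were 1.19, 1.11 and 1.03, and without Post 2'-FL 1 or 2 they were 0.80 and 1.12 (adjusted p between 0.0667 and 0.222). With the replicate number as a block, which the labels give but which did not pair the libraries, its adjusted p was 0.0625. Lyz1, lysozyme (Entrez 17110, chr10:117287795-117292868), stood at 3213, 2501 and 2126 CPM in Post control 1 to 3 and 12670, 6930 and 4350 in Post 2'-FL 1 to 3. It differed by 1.61 ± 0.46 as counted (adjusted p = 0.0133; without Post control 3 1.53, adjusted p = 0.0551; without Post 2'-FL 1 1.11, adjusted p = 0.0898) and by 0.76 corrected (adjusted p = 0.19).

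Genes of the cytosolic ribosome were higher as a block, and the larger part of them stayed so among genes of like transcript length. All 77 tested were higher as counted, against 18.8% of all genes, and 46 were higher corrected, against 10.1%; none was lower. Their median difference was 1.46 as counted and 0.628 corrected, and 28 of the 46 corrected calls held without any single library. The summed corrected level of the 77 genes was 32660, 32830 and 29350 in Post control 1 to 3 and 63680, 43920 and 50750 in Post 2'-FL 1 to 3. Every Post 2'-FL library lay above every Post control library, Post 2'-FL 1 by most.

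The mRNAs of ribosomal proteins are known for a run of pyrimidines at their start, through which growth signals set their translation. Starts of 57 of the 77 genes were found in RefSeq (GRCm38.p6), from which the starts of a chromosome had been left out. The 30 bases around the start, 15 each way, are shown for the genes Rps15a (chr7:118116133-118116162, minus strand) and Rpl35 (chr2:39005117-39005146, minus strand). Both were taken from genes higher both ways whose window holds CTTTC, and genes without these letters were passed over. The first CTTTC, a short pyrimidine run, is in capitals. In both genes the capitals lie wholly before the annotated start, and so outside the annotated mRNA. Their first letter is at position -11 in Rps15a and -5 in Rpl35, counted from the start. In Rpl35 the same letters stand again, in small letters, after the start. In Rps10, Rpl13a and Rpl12, also higher both ways and not shown, the first CTTTC lies after the start, at positions 4, 9 and 10.
Rps15a: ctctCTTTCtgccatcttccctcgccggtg
Rpl35: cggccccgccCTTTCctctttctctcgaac
In the window, before or after the start, the letters CTTTC stood on the gene's own strand in 16 of the 57 genes (28.07%) and in 472 of the 10442 tested genes with a start in the table (4.52%). The reverse complement GAAAG stood in 3 of the 57 (5.263%) and in 3.524% of the 10442. A match describes these letters only.

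Among single ribosomal genes, Rps25 (Entrez 75617, chr9:44407714-44410406, 1280 nt) stood at 303, 316 and 233 CPM in Post control 1 to 3 and 1869, 735 and 997 in Post 2'-FL 1 to 3. On the corrected scale this became 314, 308 and 278 against 1190, 566 and 663, still without overlap, a difference of 1.43 ± 0.24 (adjusted p = 0.00376). Rpl35 differed by 2.08 ± 0.29 as counted and 1.55 ± 0.26 corrected, and Rps3 by 1.80 ± 0.28 and 1.37 ± 0.24. The corrected call of each of these 3 genes held without any single library. Rps15a differed by 1.68 ± 0.27 as counted and 1.92 ± 0.28 corrected, on a curated transcript of 5179 nt; with the transcript of middle length its corrected difference was 1.17. Ribosomal protein genes have many processed copies in the genome, and between 15.2% and 19.9% of the entries of the 6 libraries were fractional, so how reads were shared with copies was not tested.

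Genes of the mitochondrial ribosome and respiratory chain encoded in the nucleus were called higher in large numbers as counted, and fewer after correction. For the mitochondrial ribosome, 46 of 49 were higher as counted and 20 corrected, with a median of 1.08 and 0.341, and 13 corrected calls held without any single library. Over all genes 18.8% were higher as counted and 10.1% corrected. For respiratory complex I, which feeds electrons from NADH, 34 of 37 were higher as counted and 13 corrected (median 1.16 and 0.299), and 4 held. For complexes II to V the numbers were 34 and 11 of 39 (median 1.04 and 0.341), 2 of which held, and 1 gene was lower corrected. Mrpl11 (1.74 ± 0.24 corrected), Mrps28 (1.11 ± 0.16) and Mrpl28 (1.02 ± 0.17) of the mitochondrial ribosome, Ndufb8 (1.04 ± 0.19) and Ndufb2 (0.73 ± 0.14) of complex I and Uqcrq (0.95 ± 0.19) of complex III kept their calls without any single library. Mrps28 (Entrez 66230, chr3:8802146-8923857), for example, stood at 12.9, 14.8 and 9.22 CPM in Post control 1 to 3 and 51.7, 35.9 and 45.8 in Post 2'-FL 1 to 3, which became 13.5, 14.1 and 12.1 against 31.6, 26.1 and 27.6 corrected CPM. Ndufb8 (Entrez 67264, chr19:44548571-44555442) stood at 242, 245 and 144 CPM in Post control 1 to 3 and 687, 424 and 583 in Post 2'-FL 1 to 3.

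The scale decided some of the mitochondrial calls. Atp5g1, a subunit of ATP synthase, differed by 1.16 ± 0.22 corrected with its longest curated transcript and by 0.22, adjusted p = 0.288 with its shortest (0.89 as counted). Uqcrb, of complex III and with a transcript of 535 nt, was higher as counted (0.82 ± 0.22, adjusted p = 0.00957) and lower corrected (-0.78 ± 0.20, adjusted p = 0.0155). The corrected call ended without Post control 2 (-0.67), Post control 3 (-0.77) or Post 2'-FL 1 (-0.59), and with the transcript of middle length the sign turned (0.05). Its direction was therefore not settled by these data. Mrpl28 was 0.61 with length in 20 bins, and Ndufb2 and Mrps28 were 1.53 and 1.69 with the transcript of middle length. The proteasome, with a median transcript of 1512 nt, showed 21 of 31 genes higher as counted and 5 higher and 1 lower corrected, against 18.8% and 10.1% of all genes higher, and its median difference went from 0.713 to -0.0042. The 5 became 0 without Post control 3 or Post 2'-FL 1, 1 without Post control 1 and 2 without Post 2'-FL 3. Dnajc15, named above, and 2 enzymes of mitochondrial fuel use, Acadl, which starts the oxidation of long fatty acids (1.05 ± 0.24 corrected, adjusted p = 0.0107; 0.68 without Post 2'-FL 3), and Fh1, fumarate hydratase (0.66 ± 0.15, adjusted p = 0.0106), were higher. The Fh1 call ended with the transcript of middle length (0.17, adjusted p = 0.424). Over the whole list of fatty acid oxidation and ketogenesis, 7 of 29 were higher and 4 lower as counted, and 3 and 2 corrected. For all genes the shares were 18.8% higher and 19.3% lower as counted, and 10.1% and 11.5% corrected.

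Corrected calls among genes of cell division were all higher. Of 28 genes of the cell cycle and DNA replication, 15 were higher as counted and 10 corrected, against 18.8% and 10.1% of all genes, none was lower, and the median difference was 0.755 and 0.600. The corrected calls numbered 4 without Post control 1 or Post 2'-FL 1, 5 without Post control 2 and 6 without Post 2'-FL 3. Birc5, survivin, which guides chromosome separation and protects dividing cells (Entrez 11799, chr11:117849237-117855743), stood at 21.1, 14.8 and 18.9 CPM in Post control 1 to 3 and 83.3, 46.2 and 63.6 in Post 2'-FL 1 to 3. The groups were apart by more than their own spread on both scales (1.81 ± 0.28 as counted; 1.90 ± 0.27 corrected, adjusted p = 0.00275; 1.09 corrected with the shortest curated transcript). Cdk1, the kinase that starts mitosis (Entrez 12534, chr10:69335146-69352912), stood at 15.9, 15.5 and 19.7 CPM in Post control 1 to 3 and 53, 31.3 and 44.1 in Post 2'-FL 1 to 3 and differed by 1.63 ± 0.33 corrected (adjusted p = 0.00611; 0.93 with the transcript of middle length). Ccne1, the cyclin of entry into DNA synthesis, stood at 2.77, 2.38 and 2.31 CPM in Post control 1 to 3 and 9.28, 5.08 and 9.49 in Post 2'-FL 1 to 3 (1.54 ± 0.30 corrected, adjusted p = 0.00534). Tyms, thymidylate synthase, differed by 0.94 ± 0.19 corrected (adjusted p = 0.00611). The corrected calls of these 4 genes held without any single library, and those of the other 6 did not.

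Of 16 genes of crypt stem cells and Wnt targets, 2 were higher and 3 lower as counted, and 3 were higher and none lower corrected, with a median difference of 0.474 and 0.742. As counted these shares are not above those of all genes (18.8% higher, 19.3% lower), and corrected the share higher over all genes was 10.1%. Without Post 2'-FL 2 the corrected list had 6 higher. The defining stem cell marker Lgr5 overlapped between the groups, with 16, 10 and 20 counts in Post control 1 to 3 and 35, 7 and 15 in Post 2'-FL 1 to 3. Axin2, a Wnt target, had 192, 291 and 630 counts against 87, 254 and 123. These counts are not scaled to library size. Smoc2, a matrix protein made by crypt stem cells (Entrez 64074, chr17:14279490-14404790), stood at 25.3, 19.7 and 27.7 CPM in Post control 1 to 3 and 55.3, 42.4 and 48.9 in Post 2'-FL 1 to 3, and differed by 1.01 ± 0.22 as counted and 1.198 ± 0.21 corrected (adjusted p = 0.00397). Lrig1, a brake on ErbB receptors that marks stem cells (Entrez 16206, chr6:94604529-94700298, 4951 nt), stood at 16.6, 16.8 and 16.4 CPM in Post control 1 to 3 and 26.1, 20.3 and 21.9 in Post 2'-FL 1 to 3. The levels did not overlap but the difference as counted did not pass (0.45 ± 0.19, adjusted p = 0.074); corrected, it was 1.26 ± 0.23 (adjusted p = 0.00412). Both corrected calls held without any single library.

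All calls among enzymes of the brush border, which mature enterocytes carry, were lower. Of 16 peptidases, disaccharidases and phosphatases of the brush border tested, 7 were lower as counted and 7 corrected, against 19.3% and 11.5% of all genes, and none was higher. The median difference was -0.745 and -0.647, and in sum the list stood at 24340, 21760 and 29530 CPM in Post control 1 to 3 and 13110, 16640 and 13190 in Post 2'-FL 1 to 3. Anpep, aminopeptidase N (Entrez 16790, chr7:79821803-79848210), stood at 7552, 5946 and 10250 CPM in Post control 1 to 3 and 1437, 3906 and 2432 in Post 2'-FL 1 to 3. Alpi, the intestinal alkaline phosphatase (Entrez 76768, chr1:87098002-87101606), stood at 1088, 878 and 974 CPM in Post control 1 to 3 and 188, 531 and 405 in Post 2'-FL 1 to 3. Neither gene's groups overlapped, and in both Post 2'-FL 1 was lowest and Post 2'-FL 2 nearest to the controls. Corrected, the differences were -1.26 ± 0.33 for Anpep (adjusted p = 0.0173), -1.28 ± 0.32 for Alpi (0.0148), -1.65 ± 0.40 for Xpnpep2, another aminopeptidase (0.0135), and -1.56 ± 0.41 for Naaladl1, a dipeptidase (0.0175).

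All 7 corrected calls of this list rested on Post 2'-FL 1: without it none of the 16 genes was called corrected, and 6 were called as counted. Without it the corrected values were -1.03, adjusted p = 0.0883 for Anpep, -1.02, adjusted p = 0.0712 for Alpi, -1.29, adjusted p = 0.0504 for Xpnpep2 and -1.27, adjusted p = 0.0848 for Naaladl1. Without Post control 3, Anpep (-1.09) and Naaladl1 (-1.55) lost their corrected calls too, as they did without Post 2'-FL 3 (-1.22 and -1.37). As counted, all 4 genes were called without any single library. The sucrase-isomaltase gene Sis, the defining disaccharidase of this list, overlapped between the groups: it stood at 1292, 2245 and 2568 CPM in Post control 1 to 3 and 4029, 1934 and 2231 in Post 2'-FL 1 to 3. Some enterocyte genes outside this list were not lower as counted. Fabp2 stood at 20610, 23540 and 13490 CPM in Post control 1 to 3 and, higher without overlap, at 42480, 33630 and 34910 in Post 2'-FL 1 to 3. Fabp1, also a fatty acid binding protein, overlapped, at 1463, 2222 and 1295 against 5374, 2080 and 8902. Apoa1 (17940, 15510 and 11150 against 8106, 15580 and 12030) and Slc5a1 (1149, 1515 and 2385 against 936, 1204 and 1068) overlapped too. Vil1 was lower without overlap, at 2647, 2166 and 3508 against 613, 1306 and 1111. These levels are as counted and not corrected for length.

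Transporters of amino acids, cholesterol and vitamin B12 differed as well. Of 12 peptide and amino acid transporters, 6 were lower as counted and 3 corrected, against 19.3% and 11.5% of all genes, and none was higher (median -0.778 and -0.467). Without Post 2'-FL 1 there was 1 corrected call, and without Post 2'-FL 2 there were 6. Slc7a8, which passes neutral amino acids out of the enterocyte (Entrez 50934, chr14:54722215-54781886), stood at 195, 121 and 226 CPM in Post control 1 to 3 and 18, 69.8 and 49.1 in Post 2'-FL 1 to 3, and its corrected difference of -1.50 ± 0.34 (adjusted p = 0.00958) held without any single library. Slc3a1, part of the transporter for cystine, was lower, at -1.15 ± 0.27 corrected; this call ended without Post 2'-FL 1 (-0.98, adjusted p = 0.0666), and that as counted (-0.93) also without Post control 3 (-0.81, adjusted p = 0.0605). Npc1l1, through which cholesterol enters (Entrez 237636, chr11:6211011-6230245), stood at 989, 936 and 1183 CPM in Post control 1 to 3 and 245, 452 and 312 in Post 2'-FL 1 to 3 and was lower, at -1.01 ± 0.24 corrected (adjusted p = 0.0117; without Post 2'-FL 1 -0.95, adjusted p = 0.0567). Of 8 sugar transporters, 1 was lower as counted and none corrected. Of 21 genes of chylomicron assembly and lipid uptake, 3 were higher and 3 lower as counted, and 1 was lower corrected. Over all genes, 18.8% were higher as counted. The list's sum lay higher with 2'-FL as counted, at 64000, 61980 and 45010 CPM in Post control 1 to 3 against 74820, 68320 and 76010. Corrected, it lay lower, at 65370, 61910 and 53220 against 41210, 51170 and 48950.

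Receptors of vitamin B12 handling went opposite ways. Cd320, the receptor that takes up B12 bound to transcobalamin (Entrez 54219, chr17:33843091-33849774), stood at 3.39, 3.84 and 3.21 CPM in Post control 1 to 3 and 15, 10.5 and 13.8 in Post 2'-FL 1 to 3, and was higher by 1.82 ± 0.30 corrected (adjusted p = 0.00376) without any single library ending the call. Cubn, cubilin, the ileal receptor for B12 bound to intrinsic factor (Entrez 65969, chr2:13276338-13491876, 11262 nt), stood at 108, 64.5 and 112 CPM in Post control 1 to 3 and 8.9, 31.9 and 22.5 in Post 2'-FL 1 to 3. It was lower, at -1.54 ± 0.39 corrected (adjusted p = 0.0162), a call that ended without Post control 1 (-1.39, adjusted p = 0.0505) or Post 2'-FL 1 (-1.18, adjusted p = 0.0631). Tfrc, the transferrin receptor, was higher by 1.08 ± 0.23 corrected (adjusted p = 0.00705; 1.69 with length alone, 1.73 with length in bins and 0.72 with the transcript of middle length). Ctse, cathepsin E, stood at 8.78, 7.13 and 10.9 CPM in Post control 1 to 3 and 2.08, 4 and 4.65 in Post 2'-FL 1 to 3 and was lower, at -1.55 ± 0.28 corrected (adjusted p = 0.00426). Elovl1, which lengthens fatty acids, was lower, at -0.996 ± 0.23 corrected (adjusted p = 0.0116) and at -0.76 ± 0.25 as counted, where the call ended without Post control 2 (-0.57), Post control 3 (-0.73) or Post 2'-FL 1 (-0.49).

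Most calls among transcription factors of the intestinal epithelium were lower. Of 22 intestinal transcription factors, 1 was higher and 9 lower as counted, and 1 and 7 corrected, against 19.3% and 11.5% of all genes lower (median -0.578 and -0.456). The 7 became 4 without Post control 1, Post control 2 or Post 2'-FL 1. Klf5 (Entrez 12224, chr14:99298691-99313412), a factor of crypt and villus epithelium, stood at 65.8, 60.9 and 86.1 CPM in Post control 1 to 3 and 18.6, 32.2 and 23.6 in Post 2'-FL 1 to 3. Vdr, the vitamin D receptor (Entrez 22337, chr15:97854427-97908296), stood at 262, 271 and 354 CPM in Post control 1 to 3 and 44.5, 119 and 99.5 in Post 2'-FL 1 to 3. In both the 3 Post 2'-FL libraries were below the 3 controls. The corrected differences were -1.40 ± 0.20 for Klf5 (adjusted p = 0.00275), -1.24 ± 0.24 for Vdr (0.00564) and -1.09 ± 0.24 for Klf4, a factor of differentiated cells (0.0092), and all 3 held without any single library.

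Calls among junction genes were all lower. Of 19 genes of tight junctions and adhesion, 8 were lower as counted and 6 corrected, against 19.3% and 11.5% of all genes, and none was higher (median -0.534 and -0.503). The corrected calls numbered 2 without Post 2'-FL 1 and 3 without Post control 1 or Post 2'-FL 3. Jup, plakoglobin of desmosomes and adherens junctions (Entrez 16480, chr11:100368856-100397839), stood at 217, 182 and 271 CPM in Post control 1 to 3 and 24.6, 84.5 and 62.7 in Post 2'-FL 1 to 3, and differed by -1.44 ± 0.26 corrected (adjusted p = 0.00397). Cgn, cingulin of the tight junction (Entrez 70737, chr3:94760069-94787725, 5016 nt), stood at 92.5, 96.3 and 114 CPM in Post control 1 to 3 and 23.1, 34.8 and 31.3 in Post 2'-FL 1 to 3 and differed by -1.76 ± 0.26 as counted and -1.02 ± 0.23 corrected (adjusted p = 0.00953). Dsp, desmoplakin, differed by -1.88 ± 0.27 and -1.02 ± 0.24, and its corrected call ended without Post 2'-FL 1 (-0.97, adjusted p = 0.0526), while those of Jup and Cgn held without any single library.

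Calls among matrix and smooth muscle genes were all higher, several of them of long transcripts. Of 25 genes of fibroblasts and extracellular matrix, whose median transcript was 6091 nt, 8 were higher as counted and 8 corrected, against 18.8% and 10.1% of all genes, none was lower, and the median difference was 0.130 and 0.913. Their corrected calls numbered 3 without Post 2'-FL 1 and 5 without Post control 1, 2 or 3 or without Post 2'-FL 3. Col6a3, a chain of collagen VI (Entrez 12835, chr1:90766860-90844001, 10106 nt), stood at 8.63, 5.3 and 10.3 CPM in Post control 1 to 3 and 22, 16.2 and 25.3 in Post 2'-FL 1 to 3, which became 9.33, 6.53 and 8.48 against 57.6, 28.2 and 51.2 corrected CPM. Fn1, fibronectin (Entrez 14268, chr1:71585473-71653280, 8315 nt), stood at 15.4, 10.4 and 20.1 CPM in Post control 1 to 3 and 35.2, 20.2 and 42.4 in Post 2'-FL 1 to 3, which became 16.6, 12.6 and 16.9 against 83, 33 and 80.5. The Post 2'-FL libraries were above the controls on both scales, and the distance grew with the correction: 2.46 ± 0.52 for Col6a3 (adjusted p = 0.00718), 2.07 ± 0.38 for Fn1 (0.00436) and 2.15 ± 0.46 for Fbn1, fibrillin (0.00754). These 3 corrected calls held without any single library. Col3a1, collagen III, differed by 2.07 ± 0.46 corrected (adjusted p = 0.00903), which ended without Post 2'-FL 1 (1.72, adjusted p = 0.0502) and with the transcript of middle length (0.91, adjusted p = 0.107).

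As counted, the 4 matrix differences were smaller, and each call ended without Post control 2 (Col6a3 1.21, Fn1 0.92, Fbn1 1.06 and Col3a1 1.10) and without Post 2'-FL 1 (1.33, 1.01, 0.88 and 1.11). They also ended without Post 2'-FL 3 for Col6a3 (1.21), Fn1 (0.83) and Col3a1 (1.29), without Post control 1 for Col6a3 (1.46) and Fn1 (1.13), and without Post control 3 for Col6a3 (1.64) and Fbn1 (1.21). The defining fibroblast collagen gene Col1a1 overlapped between the groups, at 10.2, 4.39 and 18.5 CPM in Post control 1 to 3 and 5.49, 8.01 and 6.88 in Post 2'-FL 1 to 3.

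Of 17 genes of visceral smooth muscle, 5 were higher on each scale, against 18.8% and 10.1% of all genes, and none lower (median 0.239 and 0.527). Tagln, transgelin (Entrez 21345, chr9:45929628-45936058, 1595 nt), stood at 119, 203 and 143 CPM in Post control 1 to 3 and 755, 475 and 503 in Post 2'-FL 1 to 3, and differed by 1.90 ± 0.30 as counted and 1.55 ± 0.29 corrected (adjusted p = 0.00436). Tpm2, a tropomyosin, differed by 1.27 ± 0.25 corrected (adjusted p = 0.00618). Flna, filamin A (8345 nt), and Des, desmin, passed only after correction (0.18 as counted and 1.15 ± 0.23 corrected; 0.64 and 1.11 ± 0.24). These 4 corrected calls held without any single library. Myh11, the smooth muscle myosin, overlapped, at 51.3, 55.4 and 128 CPM in Post control 1 to 3 and 30.1, 61.4 and 45.8 in Post 2'-FL 1 to 3.

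Markers of cells other than epithelium differed between the groups for some cell types and overlapped for others. The summed CPM of the matrix list was 448, 266 and 500 in Post control 1 to 3 and 871, 586 and 740.3 in Post 2'-FL 1 to 3, and that of the smooth muscle list was 1763, 2384 and 2463 against 3224, 3407 and 3223. The 4 tested red blood cell genes summed to 34.1, 58.5 and 12.03 against 181, 77.6 and 219.9, and the 13 tested neuron and glia genes to 25.1, 17.4 and 20.5 against 82, 42 and 54.9. In these 4 lists every Post 2'-FL library lay above every Post control library as counted. So they did for B and plasma cells (1349, 954 and 686 against 2034, 1584 and 2410) and, barely, for macrophages and myeloid cells (407 against 408 at the nearest). Corrected, the sums of the matrix, smooth muscle and neuron and glia lists still lay apart. Those of the red blood cell, B and plasma cell, and macrophage and myeloid lists overlapped. The corrected red blood cell sum was 56.98 in Post control 2 and 54.26 in Post 2'-FL 2. The corrected macrophage and myeloid sum was 420.8 in Post control 1 and 411.3 in Post 2'-FL 2. As counted, the endothelial list overlapped, at 95.1, 61.8 and 88.2 against 65.0, 73.1 and 75.5, as did the adipose list (118.5, 139.6 and 186 against 170.2, 112 and 157), the T cell list (647, 317 and 614 against 767, 760.2 and 274) and the mast cell list (32.4, 9.51 and 16.3 against 21.4, 16.5 and 13.8). Called corrected were 2 of the red blood cell genes, the alpha globin copies Hba-a1 and Hba-a2, near-identical copies between which reads may be split, which were chosen for naming after their values were seen, and none of the neuron and glia genes, 4 of which had been higher as counted. The 2 globin calls were lost without Post control 1, without Post control 3, without Post 2'-FL 1 or without Post 2'-FL 3. Of all genes, 18.8% were higher as counted and 10.1% corrected. Whether the share of non-epithelial tissue in a sample bore on the lower epithelial and the higher matrix levels was not tested.

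An adaptor and a receptor of growth factor signalling fell furthest in their lists. Irs2, the adaptor that passes signals on from the insulin and insulin-like growth factor receptors (Entrez 384783, chr8:10984681-11008929, 6323 nt), had 77, 30 and 103 counts in Post control 1 to 3 and 1, 5 and 4 in Post 2'-FL 1 to 3, that is 11.9, 5.48 and 10.3 CPM in Post control 1 to 3 and 0.189, 0.77 and 0.744 in Post 2'-FL 1 to 3. The groups were far apart, with a difference of -3.96 ± 0.58 as counted (adjusted p = 0.000789) and -3.06 ± 0.58 corrected (0.00498), and both calls held without any single library, although the level in Post 2'-FL rests on few counts. Erbb3, a receptor for neuregulins (Entrez 13867, chr10:128567523-128589635, 6016 nt), stood at 231, 175 and 248 CPM in Post control 1 to 3 and 13.6, 67.9 and 22.3 in Post 2'-FL 1 to 3, and differed by -2.65 ± 0.48 as counted and -2.06 ± 0.42 corrected (adjusted p = 0.00655), again without any single library ending the call.

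Over 29 genes of insulin and insulin-like growth factor signalling, whose median transcript was 6478 nt, 1 was higher and 15 were lower as counted, and 3 and 6 corrected, against 19.3% and 11.5% of all genes lower. The 6 became 3 without Post control 1, Post control 3, Post 2'-FL 1 or Post 2'-FL 3. The median difference went from -0.627 to -0.083. Foxo4, a factor that insulin signals keep out of the nucleus, was lower, at -1.05 ± 0.21 corrected (adjusted p = 0.00601). Akt2 (0.96 ± 0.19) and Igfbp4 (1.19 ± 0.24) were higher corrected but not as counted (0.22, adjusted p = 0.283, and 0.59, 0.0814), and with the transcript of middle length neither passed (0.05, adjusted p = 0.83, and 0.55, adjusted p = 0.0706). Of 21 genes of the epidermal growth factor family and other growth factors, 5 were lower as counted and 3 corrected, against 19.3% and 11.5% of all genes. Corrected, 1 was higher, against 10.1% of all genes. The 3 lower became 1 without Post 2'-FL 1, 2 without any other library except Post 2'-FL 2, and 5 without Post 2'-FL 2.

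Corrected calls among innate immune sensors and antigen presentation genes were all lower. Of 36 genes of the interferon response, 7 were lower as counted, a share like the 19.3% of all genes, and 7 corrected, against 11.5%; none was higher, and the median was -0.432 and -0.421. The corrected calls numbered 1 without Post control 3 and 2 without Post 2'-FL 1. Ddx58, the RNA sensor RIG-I (Entrez 230073, chr4:40203777-40239825), stood at 53.8, 45.3 and 70.8 CPM in Post control 1 to 3 and 8.52, 26.8 and 19.9 in Post 2'-FL 1 to 3, and its corrected difference of -1.45 ± 0.33 (adjusted p = 0.00971) held without any single library. Oas3, which makes the activator of RNase L, was lower, at -1.64 ± 0.39 corrected (-2.49 with the transcript of middle length), a call that ended without Post control 3 (-1.38, adjusted p = 0.0562) or Post 2'-FL 1 (-1.40, adjusted p = 0.0609). Oasl1 was lower, at -1.12 ± 0.29 corrected, until Post control 3 was left out (-1.04, adjusted p = 0.0626; as counted -1.07, adjusted p = 0.057).

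B2m, the light chain of class I antigen presentation, depended on the scale. It stood at 3325, 2858 and 2987 CPM in Post control 1 to 3 and 2078, 3087 and 2198 in Post 2'-FL 1 to 3, where the groups overlapped and the difference did not pass (-0.32 ± 0.24, adjusted p = 0.314). Among genes of like length (its transcript has 860 nt) it stood at 3404, 2889 and 4306 corrected CPM in Post control 1 to 3 and 557, 1727 and 1008 in Post 2'-FL 1 to 3, without overlap and lower in Post 2'-FL, a difference of -1.69 ± 0.34 (adjusted p = 0.00637; -1.05 with the transcript of middle length). Ctss, cathepsin S, which trims peptides for class II presentation (Entrez 13040, chr3:95526786-95556405, 1355 nt), stood at 320.3, 267 and 240.3 CPM in Post control 1 to 3 and 129.5, 216 and 162 in Post 2'-FL 1 to 3. It differed by -0.71 ± 0.20 as counted, which ended without Post control 1 (-0.52, adjusted p = 0.1) or Post 2'-FL 1 (-0.55, adjusted p = 0.0516), and by -1.50 ± 0.25 corrected (adjusted p = 0.00376). The corrected calls of B2m and Ctss held without any single library. Over 16 genes of class I presentation, 2 were higher and 3 lower as counted, and none and 3 corrected, against 19.3% of all genes lower as counted and 11.5% corrected. The corrected calls numbered 1 without Post control 1, Post control 3, Post 2'-FL 1 or Post 2'-FL 3. T cell genes (22 tested) had 1 higher as counted and 1 lower corrected, and the summed level of class II genes varied within groups, at 6347, 1200 and 6102 CPM in Post control 1 to 3 and 2808, 5453 and 1007 in Post 2'-FL 1 to 3.

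Calls among genes of the unfolded protein response were all lower, and most of those among chromatin genes. Of 23 genes of endoplasmic reticulum stress and secretory chaperones, 8 were lower as counted and 7 corrected, against 19.3% and 11.5% of all genes (median -0.232 and -0.424). The corrected calls numbered 2 without Post control 3, 1 without Post 2'-FL 1 and 3 without Post 2'-FL 3. Ern1, the stress sensor IRE1 (Entrez 78943, chr11:106397620-106487796), stood at 11.2, 8.77 and 12.5 CPM in Post control 1 to 3 and 2.84, 3.54 and 3.54 in Post 2'-FL 1 to 3 and differed by -1.02 ± 0.24 corrected (adjusted p = 0.0116; -2.10 with the transcript of middle length), a call that held without any single library. Eif2ak3, the sensor PERK, was lower, at -0.79 ± 0.19 corrected, which ended without Post 2'-FL 1 (-0.75, adjusted p = 0.055); with the transcript of middle length it was -1.29 and with the shortest -1.69. Of 18 immediate early genes, 1 was higher and 5 were lower on each scale, against 19.3% and 11.5% of all genes lower. The 5 corrected lower calls became 0 without Post 2'-FL 1 or Post 2'-FL 3, 1 without Post control 3 and 2 without Post control 1.

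Of 40 genes that modify histones or remodel chromatin, with a median transcript of 7256.5 nt, 32 were lower and 1 higher as counted. Corrected, 19 were lower and 1 higher. Over all genes 19.3% were lower and 18.8% higher as counted, and 11.5% and 10.1% corrected. In the decile of longest transcripts (from 6488 nt) 42.5% were lower as counted and 17.9% corrected. The median difference of the 40 genes was -1.26 and -0.500, and 13 of the 19 corrected calls held without any single library. Kdm6b, a demethylase of histone H3 lysine 27 (Entrez 216850, chr11:69398508-69420367), stood at 47, 40.4 and 72.5 CPM in Post control 1 to 3 and 4.54, 13.7 and 7.07 in Post 2'-FL 1 to 3. Chd7, a chromatin remodeller, had 6, 5 and 8 counts in Post 2'-FL 1 to 3 against 42, 32 and 113 in Post control 1 to 3. In both the groups were apart, and the corrected differences were -1.62 ± 0.24 for Kdm6b (adjusted p = 0.00275), -1.43 ± 0.21 for the demethylase Kdm2a (0.00275) and -1.93 ± 0.33 for Chd7 (0.00376). Malat1, a long RNA that stays in the nucleus and is not translated (Entrez 72289, chr19:5795690-5802672), stood at 60.7, 55.9 and 71 CPM in Post control 1 to 3 and 20.8, 25.2 and 14.3 in Post 2'-FL 1 to 3, and was lower, at -1.42 ± 0.29 corrected (adjusted p = 0.00682). The corrected calls of these 4 genes held without any single library. The list that holds Malat1, of nuclear retained RNA and read-heavy transcripts, was mixed. Of its 5 tested genes, none was higher and 2 were lower as counted, and 1 was higher and 2 lower corrected. Over all genes 18.8% were higher and 19.3% lower as counted, and 10.1% and 11.5% corrected. Whether the balance of nuclear and cytoplasmic RNA differed between the samples was not tested.

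Single genes of fucose handling were called, some higher and some lower. Of 13 genes of fucosylation, 2 were higher and 2 lower as counted, and 2 and 3 corrected, with a median of -0.214 and -0.050. Over all genes 18.8% were higher and 19.3% lower as counted, and 10.1% and 11.5% corrected. As counted the shares of the list are not above these. Gmds, the first enzyme of GDP-fucose synthesis (Entrez 218138, chr13:31819583-32338762, 1713 nt), stood at 106, 153 and 141 CPM in Post control 1 to 3 and 376, 284 and 346 in Post 2'-FL 1 to 3, and was higher by 1.33 ± 0.21 as counted and 1.00 ± 0.18 corrected (adjusted p = 0.00414). B4galnt2, which builds a glycan of the gut surface whose making competes with fucosylated forms (Entrez 14422, chr11:95863559-95914960), stood at 526, 682 and 649 CPM in Post control 1 to 3 and 325, 399 and 353 in Post 2'-FL 1 to 3 and was lower, at -1.18 ± 0.23 corrected (adjusted p = 0.00561); as counted (-0.79) the call ended without Post control 2 (-0.65, adjusted p = 0.0615) or Post control 3 (-0.69, adjusted p = 0.0602). Both corrected calls held without any single library. Fuca1, the lysosomal fucosidase, was higher by 0.67 ± 0.17 corrected, a call that ended without Post control 3 (0.55, adjusted p = 0.0767) or Post 2'-FL 1 (0.55, adjusted p = 0.0764), and by 0.51 as counted, where Post control 1 (0.56), Post control 3 (0.45), Post 2'-FL 1 (0.49) and Post 2'-FL 3 (0.47) each ended it. Fut2, the fucosyltransferase of the gut surface (Entrez 14344, chr7:45648591-45666394), stood at 1.23, 1.28 and 1 CPM in Post control 1 to 3 and 4.73, 1.23 and 2.6 in Post 2'-FL 1 to 3. Its groups overlapped as counted, and the difference did not pass on either scale (1.27 ± 0.72, adjusted p = 0.177; corrected 1.52 ± 0.74, 0.152).

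Corrected calls among clock, goblet and enteroendocrine genes were all lower. Of 17 clock genes, 6 were lower as counted and 4 corrected, against 19.3% and 11.5% of all genes, and none was higher. Without Post 2'-FL 1 none of the 17 was called corrected, and without Post control 2 there were 2. Npas2, a partner in the clock's activator, was lower, at -1.36 ± 0.32 corrected (adjusted p = 0.0122), a call that ended without Post 2'-FL 1 (-1.14, adjusted p = 0.065). Of 12 goblet cell genes, 2 were higher and 3 lower as counted and 4 lower corrected, a number that was 1 without Post control 3 or Post 2'-FL 1 and 2 without Post control 2. Over all genes 18.8% were higher and 19.3% lower as counted, and 11.5% lower corrected. Sytl2, which tethers secretory granules (Entrez 83671, chr7:90302211-90410719), stood at 22.2, 22.3 and 24.9 CPM in Post control 1 to 3 and 11.6, 9.55 and 9.86 in Post 2'-FL 1 to 3 and was lower, at -1.09 ± 0.19 corrected (adjusted p = 0.00397), without any single library ending the call. Of 14 enteroendocrine genes, 4 were higher and 2 lower as counted and 4 lower corrected, against the same shares of all genes. The 4 corrected calls became 2 without any 1 of the Post control libraries and 0 without Post 2'-FL 1. Chgb, a granin of hormone granules, was lower, at -1.08 ± 0.25 corrected (adjusted p = 0.0108; without Post 2'-FL 1 -0.87, adjusted p = 0.0521). None of 9 tuft cell genes was called corrected.

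Of 44 genes of xenobiotic oxidation and conjugation, 4 were higher and 6 lower as counted and 6 lower corrected, against 11.5% of all genes, with a median of -0.443 corrected. As counted, 18.8% of all genes were higher and 19.3% lower. Their corrected calls numbered 3 without Post control 1, 1 without Post control 3, 0 without Post 2'-FL 1 and 10 without Post 2'-FL 3. Of 31 glutathione transferases and NRF2 targets, 11 were higher and 1 lower as counted, and 4 and 1 corrected, against 18.8% and 10.1% of all genes higher, with none higher without Post control 3 or Post 2'-FL 3, 1 without Post 2'-FL 1 and 2 without Post control 1. Of 23 genes of cholesterol synthesis, 3 were lower as counted and 1 corrected; of 32 of glycolysis and the citrate cycle, 5 were higher and 5 lower as counted, and 2 and 5 corrected, against 11.5% of all genes lower corrected. The 5 corrected lower calls of that list became 0 without Post control 3 or Post 2'-FL 1, 2 without Post control 2 and 3 without Post control 1 or Post 2'-FL 3. None of 18 macrophage and myeloid, 17 endothelial or 9 adipose genes was called corrected, and 1 of 13 B and plasma cell genes was higher.

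**Figure D4:**
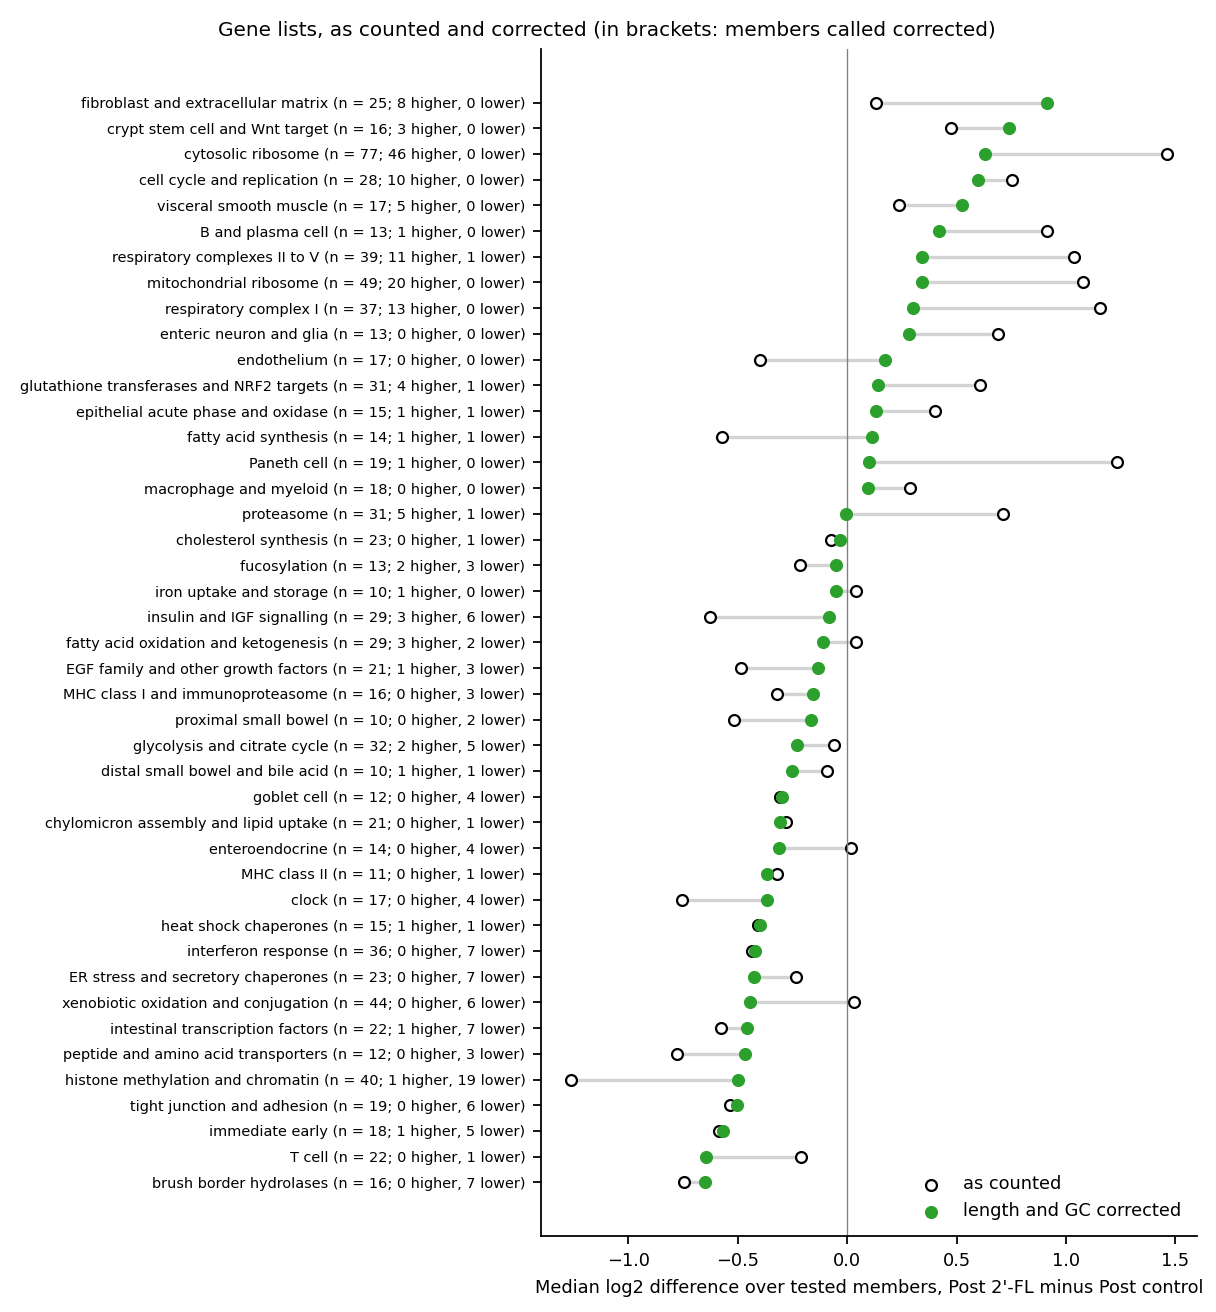
Median log2 difference, Post 2'-FL minus Post control, over the tested members of each list of 10 or more genes, as counted (open circles) and length and GC corrected (filled). In brackets stand the members tested and those called corrected; the cytosolic ribosome moved from 1.46 to 0.628 and the matrix list from 0.130 to 0.913.

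**Figure D5:**
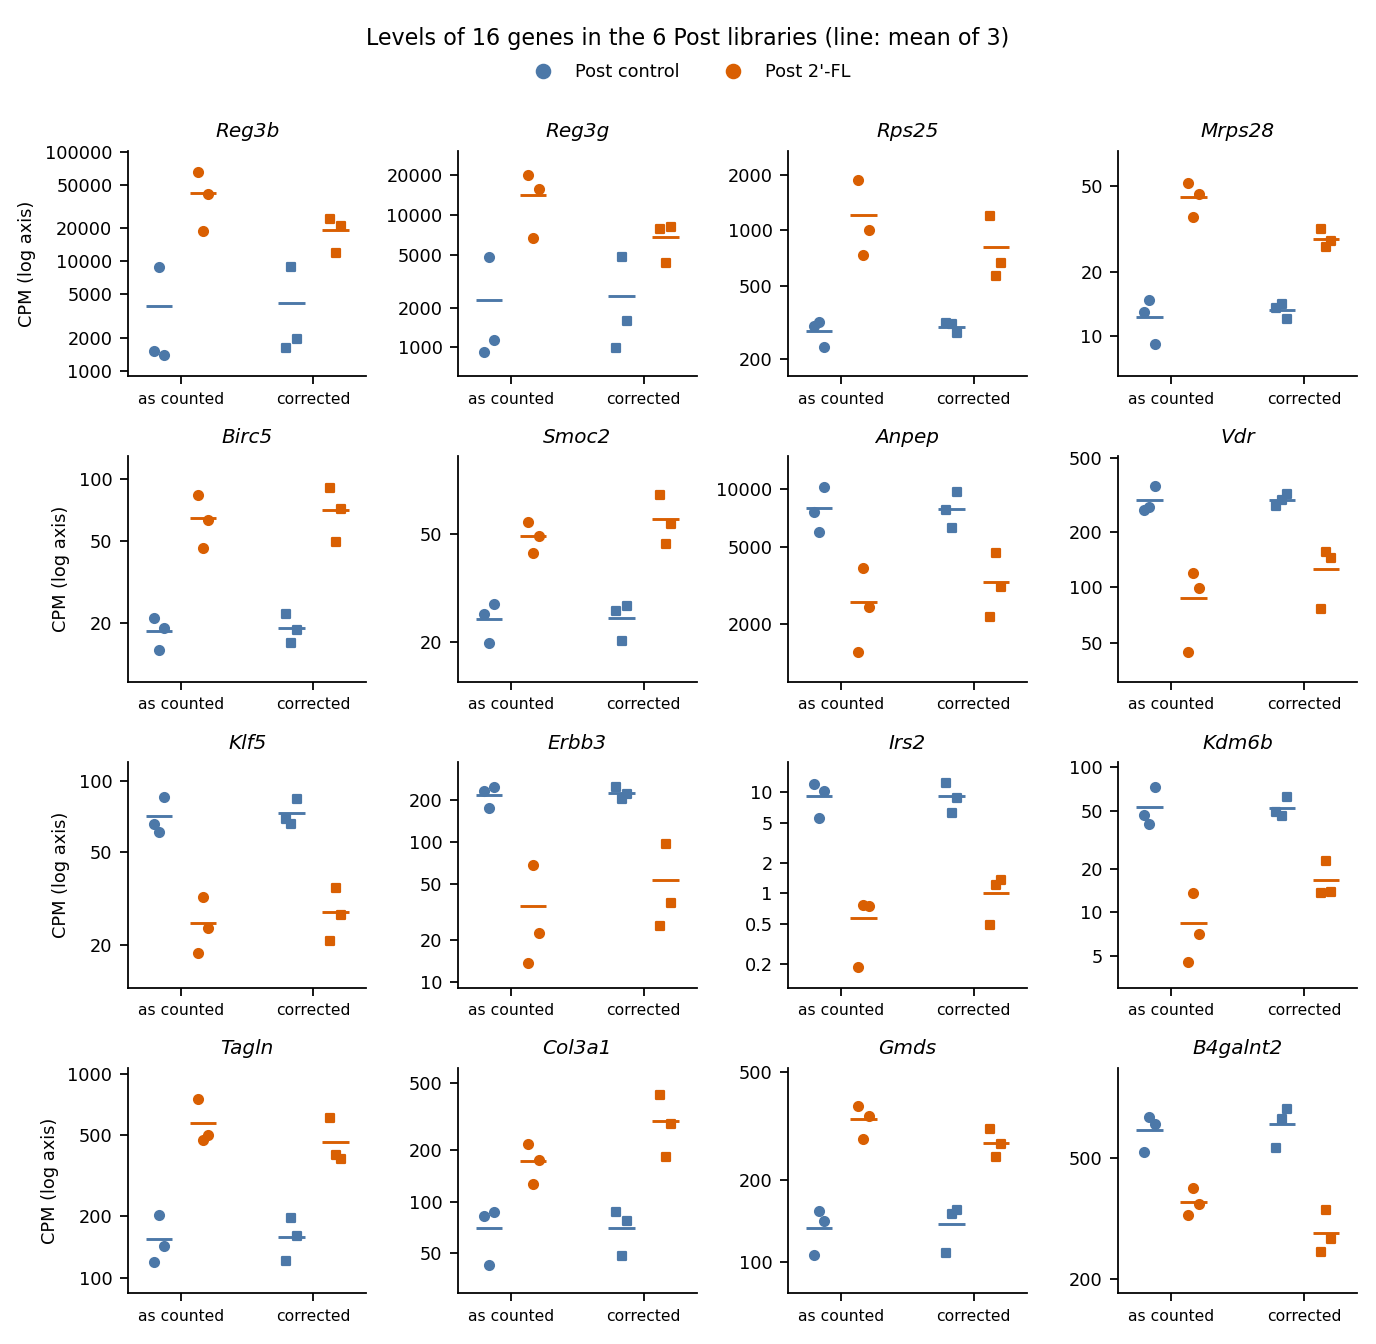
CPM in the single Post libraries (points; log axes, which differ between panels) with the group mean of 3 as a line, as counted (circles) and corrected (squares). For Reg3g the corrected groups overlap; for Rps25, Birc5, Klf5, Kdm6b and Tagln they are apart on both scales.

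The Pre libraries, which share no library with the Post comparison, gave few calls between their arms, although some lists leaned the same way there. Corrected medians, 2'-FL minus control, were 1.08 in Pre and 0.729 in Post for Reg lectins and -0.526 and -0.647 for the brush border. They were -0.829 and -0.365 for the clock and 0.41 and 0.53 for smooth muscle. Other lists had a small Pre median (0.0083 and 0.628 for the cytosolic ribosome) or the other sign (0.335 and -0.421 for the interferon response). The same model called 2 genes between Pre 2'-FL and Pre control (0.0152%; 445 at an unadjusted p under 0.05 by edgeR as counted, 599 corrected), and the same 2 after correction. Both are lower with 2'-FL in Pre and in Post. Per2, a repressor of the clock (Entrez 18627, chr1:91415977-91459351), averaged 38.6 CPM in Pre control and 9.88 in Pre 2'-FL, a difference of -1.97 ± 0.26 (adjusted p = 0.0128). In the Post libraries it stood at 8.32, 13.2 and 9.92 CPM in Post control 1 to 3 and 2.84, 2.77 and 2.42 in Post 2'-FL 1 to 3, a difference of -1.95 ± 0.31, and the difference between the Post and Pre differences was 0.02 (adjusted p = 0.989). Corrected, the Post difference was -1.16 ± 0.34 (adjusted p = 0.0287), which ended without Post control 2 (-0.88) or without Post 2'-FL 1 (-1.36), 2 (-1.05) or 3 (-1.08). Bcmo1, the enzyme that cleaves beta-carotene to retinal (Entrez 63857, chr8:117095851-117133720), averaged 7.56 and 0.664 CPM in the Pre groups (-3.45 ± 0.38, adjusted p = 0.00331). In the Post libraries it stood at 3.7, 5.3 and 4.21 CPM in Post control 1 to 3 and 1.14, 2.31 and 0.93 in Post 2'-FL 1 to 3 and was lower, at -1.67 ± 0.35 corrected (adjusted p = 0.00716), without any single library ending the call.

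Whether the Post difference differed from the Pre difference was tested for every gene. As counted, 2038 genes (15.5%) passed, 982 with a more positive difference in Post (7.47%) and 1056 with a more negative one (8.03%). Corrected, 0 passed by edgeR (2631 at an unadjusted p under 0.05, smallest adjusted p 0.0532). The labels say that all bowels were collected after resection, although 6 libraries carry Pre labels, and each library was taken as its own label has it.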

How the data were processed

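RNA-seq libraries of small bowel (about 1.5 µg RNA, TruSeq, HiSeq 2000, per the labels' protocols) were deposited as estimated counts per gene, not whole numbers throughout and not normalized by the authors. Per the submitters' processing notes the build was mm10 and DESeq was used; the aligner, counter, strand setting and annotation are not given in the sources used here. Here, entries of 1 Entrez ID were summed (486 of 36186 entries belong to genes listed more than once) and rounded. Genes were kept by filterByExpr. edgeR 4.0.16 (R 4.3.3; TMM, quasi-likelihood test, Benjamini-Hochberg over all 13154 genes, called at 0.05) was fitted to all 12 libraries in 4 groups, once as counted and once with per-library offsets from splines (4 degrees of freedom each) on log2 transcript length and GC content, estimated on log2 CPM with a prior count of 2. Lengths are those of the longest GENCODE M21 transcript matched to a curated RefSeq mRNA. A standard error is the log2 difference over the root of F. The code was tested on simulated data. The members and gene lists were chosen with earlier results of these data known. Named genes are the 10 largest increases and decreases called both ways (at least 5 CPM, no overlap), 5 each way called only as counted, up to 4 of each list with the smallest corrected p, and Reg3b, Reg3g, Fut2, Fabp6 and Fgf15; of these, members without a call are mostly left unnamed, and 2 genes are not reported here. Outside the rule, Bcmo1 was named for its Pre call, after its values were seen. Sis, Col1a1, Myh11, Fabp1, Fabp2, Apoa1, Slc5a1, Vil1, Lgr5 and Axin2 were named as markers, also after their values were seen. Totals of 5692972 to 9321751 counts set the precision, and replicates differed by more than sampling noise.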

Additional observations from a re-analysis of the deposited data

Results flagged for a closer look

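For 55 of the 99 named genes the Post difference, 2'-FL minus control, differed from the Pre difference as counted (interaction term, edgeR's quasi-likelihood test, adjusted p under 0.05). Most of these genes were named for their Post difference, which is a term of this contrast, so their share is not set against that of all genes. Corrected for length and GC, none of the 55 passed, and the estimate kept its direction in all 55. The values are Post difference minus Pre difference in log2 units, as counted. The difference was more positive in Post for Cd320 2.13, Rps25 2.10, Rpl35 2.04, Bcmo1 1.91, Mmp7 1.89, Rps3 1.86, Ndufb2 1.78, Mrps28 1.72, Uqcrq 1.72, Dnajc15 1.71, Mrpl11 1.70 and Gins2 1.70. The other 13 were Birc5 1.67, Tagln 1.67, Ccne1 1.67, Dnah14 1.63, Rps15a 1.62, Ndufb8 1.62, Gmds 1.49, Mrpl28 1.36, Acadl 1.35, Naca 1.29, Atp5g1 1.004, Smoc2 0.98 and Fh1 0.87.

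The difference was more negative in Post for Irs2 -4.22, Kif13b -3.23, Erbb3 -2.81, Polr2a -2.76, Oas3 -2.74, Chd7 -2.72, Npas2 -2.46, Akna -2.42, Cpeb4 -2.29, Kdm6b -2.28, Nrip1 -2.23 and Zbed6 -2.07. Further genes were Kdm2a -2.04, Ern1 -2.004, Malat1 -2.003, Garem -1.79, Lpar5 -1.73, Rcor1 -1.73, Slc7a8 -1.71, Ddx58 -1.67, Foxo4 -1.63 and Klf5 -1.62. The rest were Jup -1.62, Dsp -1.58, Cgn -1.47, Chgb -1.46, Vdr -1.39, Npc1l1 -1.27, Ctse -1.24 and Eif2ak3 -1.14. Bcmo1 was lower in both comparisons and by less in Post. Whether length trends that differ between Pre and Post libraries set these values was not tested gene by gene.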

How the results depend on the processing

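Other normalization (RLE), DESeq2, no filter, the 6 Post libraries alone, and length alone, linear terms or bins kept each count of called genes within 1.5 times. Left out 1 library at a time, the genes called ranged from 3279 to 5384 as counted, from 925 to 3371 corrected and from 781 to 2610 both ways, and the length trend from -0.696 to -0.414. Without Post control 3 and Post 2'-FL 1 together, an alternative chosen after the data were seen, 2021 genes were called as counted, 0 corrected and 0 both ways; 2 libraries a group then remain. With the transcript of middle length 3316 genes were called both ways; the cause was not tested. The interaction with length and GC offsets called 0 genes. Fabp6 corrected (-0.16) turned sign with no filter (0.30), with the transcript of middle length (0.65) and with both libraries left out (0.22), and ranged from -0.98 to 0.17 with 1 left out, including 0.13, 0.09 and 0.17. Uqcrb corrected (-0.78) turned to 0.054 with the transcript of middle length. The replicate numbers of the labels did not pair the libraries (correlations of deviations 0.102, -0.225 and -0.112 as counted); with the replicate block 4836 genes were called as counted, 2710 corrected and 2074 both ways. A fold of a gene with few counts, such as Irs2 or Chd7 in Post 2'-FL, is limited by depth.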
